A study of Mus musculus with 531 samples.

Results

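The 40 protein-coding imprinted genes described here were picked by name from a table of 22084 genes: 21 are known to be expressed from the paternal allele, 18 from the maternal allele, and Gnas has transcripts of both kinds. The table holds RNA read counts of single cells from untreated C57Bl/6Babr mouse embryos at embryonic day (E) 4.5, 5.5 and 6.5, each cell also having been processed for its DNA methylation, which was not used here. Of 264 cells, 217 had at least 50000 reads and 2000 genes detected and were kept: 75 cells of 5 embryos (by the labels) at E4.5, 59 cells of 1 embryo at E5.5 and 83 cells of 2 embryos at E6.5. The trophectoderm had been removed at E4.5, and extraembryonic tissue had been dissected away at E5.5 and E6.5. Reads were not split by allele, so every value is the sum of both parental copies, and a rise or fall says nothing about which copy was read.

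Imprinted genes carry a DNA methylation mark set in the egg or the sperm, and the mark keeps 1 parental copy silent in many tissues. The marks are held through the wave of demethylation in the early embryo by KRAB zinc finger proteins such as ZFP57, which bind methylated imprinting control regions together with TRIM28. Many imprinted genes act on growth and on the placenta: paternally expressed genes such as Igf2 often promote growth, and maternally expressed genes such as Igf2r, Grb10, Cdkn1c and Phlda2 often restrain it.

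Cells of a stage were grouped by 44 lineage markers, none of them an imprinted gene of the set, into epiblast-like cells (19, 51 and 22 in order of stage), endoderm-like cells (56, 8 and 27) and, in E6.5 embryo 2 alone, 22 mesoderm-like cells, while 12 cells at E6.5 took no name and were left out. Reads were summed over the cells of a class within an embryo, where a class had at least 3 cells, which gave 16 sums of 1747123 to 79265663 reads. E4.5 embryo 5 held only 2 epiblast-like cells and has no epiblast-like sum. Values below are counts per 1000000 reads (CPM) of these sums, with 1 value per embryo and class. In a sum, fewer expressing cells and less RNA per cell cannot be told apart, and stage cannot be told apart from the label prefixes of the cells, because no prefix spans stages. Markers of other lineages reached more genes at E6.5. Of 15 endoderm markers, 1 to 4 reached 10 CPM in the epiblast-like sums of E4.5, 1 did in that of E5.5, and 11 and 9 did in those of E6.5 embryos 1 and 2, where the list summed to 3569 and 3201 CPM, against 1202 to 2860 CPM at E4.5 and 523 CPM at E5.5. At E4.5 and E5.5 most of that sum was Apoe, at 1131 to 2807 and 509 CPM, while Apoe made up 972 and 1229 CPM of it at E6.5. Ttr, the transthyretin of visceral endoderm, lay at 1372 and 779 CPM in the E6.5 epiblast-like sums and at 0 to 3.02 CPM in the earlier ones. Of 9 trophoblast markers, 4 and 3 reached 10 CPM in the E6.5 epiblast-like sums and none did in those tested at E4.5 and E5.5. Of 8 markers of decidua or blood, 1 and 2 reached 10 CPM in the E6.5 epiblast-like sums, where the list summed to 52.2 and 45.2 CPM, against 0 to 4.33 CPM at E4.5 and 5.58 CPM at E5.5. Prl8a2, a prolactin family gene of the decidua, lay at 36.5 and 5.99 CPM there and at 0 in every earlier sum. The 10 epiblast markers summed to 3456 to 5011 CPM in the epiblast-like and 786 to 1201 CPM in the endoderm-like sums of E4.5, to 3341 and 201 CPM at E5.5, and at E6.5 to 2194 and 660 CPM in embryo 1 and 2230 and 1892 CPM in embryo 2, so the classes of that embryo were nearly alike in them. In the mesoderm-like sum, 13 of the endoderm markers reached 10 CPM. The part of these other lineages in the E6.5 values was examined only by keeping the epiblast-like cells lowest in endoderm markers, given beside those results. This kept 4 of 9 such cells in embryo 1 and 6 of 13 in embryo 2, so the sums were smaller too. The marker level left in the kept cells was not measured. The part of other lineages therefore cannot be told from calls kept or lost in that fit.

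**Figure D1:**
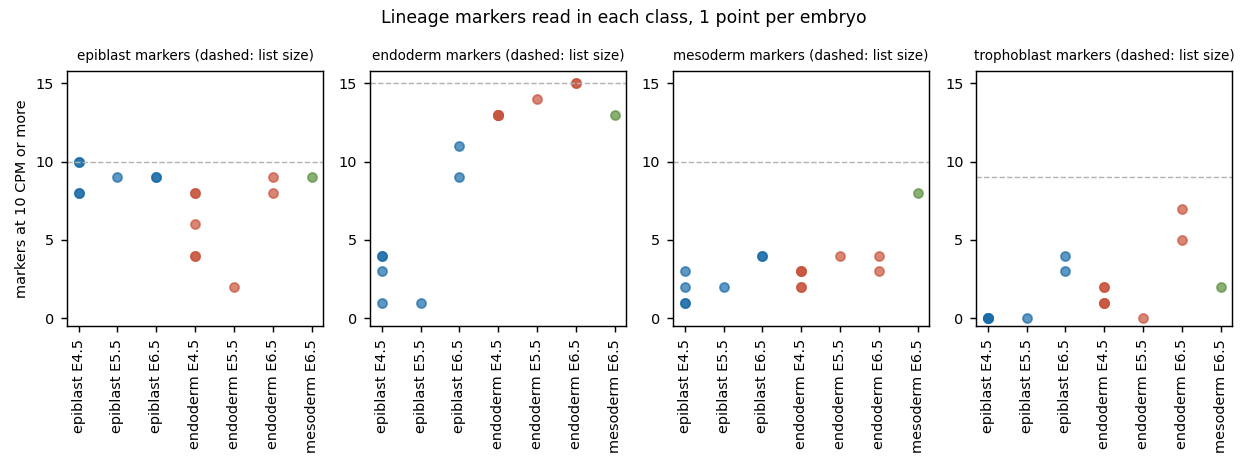
Number of lineage markers at 10 CPM or more (y axis) in each class and stage (x axis), with 1 point per embryo and a dashed line at the size of each list. In the E6.5 epiblast-like sums 11 and 9 of 15 endoderm markers passed 10 CPM, against 1 to 4 in the E4.5 sums used.

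Promoter sequences of 4 members are shown first, because the levels of Mest, H13 and Igf2r separated the lineages at E4.5 and because Zdbf2 held the most matches of the set to the letters TGCCGC, the core of the motif bound by ZFP57. The sequences are from RefSeq on GRCm38.p6, on the strand of the gene, within the 250 bases before the RefSeq start of transcription, and bases of annotated exons were left off. Capitals mark TGCCGC or, for the other strand, GCGGCA. The Mest window lies at chr6:30737800-30737994 (plus strand), that of Zdbf2 at chr1:63200108-63200312 (plus strand, before the start of its long transcript), that of H13 at chr2:152669211-152669421 (plus strand) and that of Igf2r at chr17:12769707-12769956 (minus strand).
Mest: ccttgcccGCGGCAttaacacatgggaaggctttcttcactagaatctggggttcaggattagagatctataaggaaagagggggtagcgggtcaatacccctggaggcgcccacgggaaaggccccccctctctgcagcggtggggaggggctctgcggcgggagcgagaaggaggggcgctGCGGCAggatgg
Zdbf2: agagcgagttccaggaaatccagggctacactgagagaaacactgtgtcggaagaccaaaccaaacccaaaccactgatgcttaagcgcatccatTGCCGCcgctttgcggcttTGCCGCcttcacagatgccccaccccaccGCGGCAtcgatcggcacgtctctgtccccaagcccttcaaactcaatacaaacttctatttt
H13: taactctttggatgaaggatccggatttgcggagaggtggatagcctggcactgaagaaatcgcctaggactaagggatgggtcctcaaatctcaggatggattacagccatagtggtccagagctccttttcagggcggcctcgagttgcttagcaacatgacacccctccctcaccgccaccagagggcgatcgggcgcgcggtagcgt
Igf2r: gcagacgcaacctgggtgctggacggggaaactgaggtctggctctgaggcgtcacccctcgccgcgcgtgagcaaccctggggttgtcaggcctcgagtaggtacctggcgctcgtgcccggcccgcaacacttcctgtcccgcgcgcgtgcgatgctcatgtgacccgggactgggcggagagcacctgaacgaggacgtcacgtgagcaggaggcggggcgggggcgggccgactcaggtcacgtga

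The Mest stretch held 2 matches, the Zdbf2 stretch 3, and those of H13 and Igf2r none. Over whole windows of 250 bases before to 50 after the start, 14 of 34 members with a window held at least 1 match (41.2%), against 13.1% of 27025 genes. A gene counted if any of its windows matched. By window, 15 of 54 member windows held a match, against 11.6% of 32851 windows. Among windows with at least 15 CG dinucleotides the shares were 47.8% (11 of 23 members) and 26.4% (of 10038 genes). Member windows were richer in CG, with a median of 15 against 7 over all windows. A match is a run of letters and not a bound site, and control regions that lie elsewhere in a gene, as the intronic one of Igf2r does, fall outside these windows.

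At E4.5, where 4 embryos had a sum of both lineages, H13, Igf2r and Igf2 were higher in endoderm-like than in epiblast-like cells, and Snrpn, Mest, Phlda2 and Sgce were lower. Of the 39 members with enough reads to be tested (Slc22a2 had no read in any kept cell of a named class), 3 were higher (background 8.39% of 15082 genes) and 4 were lower (background 4.3%) at an adjusted p under 0.05 in edgeR's quasi-likelihood test, with the classes of an embryo paired and p-values adjusted over all genes by Benjamini-Hochberg. The share of members higher was near that of all genes. The median log2 difference was -0.21 over members and 0.25 over all genes tested. Of the 21 paternally expressed members 1 was higher and 3 lower with a median of -0.49, and of 17 maternally expressed members tested 2 were higher and 1 lower with a median of 0.81.

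Snrpn, which encodes the spliceosomal protein SmN and lies at chr7:59982495-60140219 (minus strand, GRCm38), had 147, 195, 107 and 128 CPM in the epiblast-like sums of embryos 1 to 4. In the endoderm-like sums of embryos 1 to 5 it had 34.7, 18.9, 26.99, 20.6 and 14.4 CPM. Every epiblast-like sum stood above every endoderm-like sum. The log2 difference, endoderm-like minus epiblast-like, was -2.57 (SE 0.36, edgeR adjusted p = 6.95e-11), a 5.92-fold lower level. It was lower in 4 of 4 paired embryos.

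Mest (chr6:30723547-30748465, plus strand), a paternally expressed member of the alpha/beta hydrolase fold family linked to fetal growth, had 41.7, 32.1, 38.2 and 16.2 CPM in the epiblast-like sums. The endoderm-like sums had 2.88, 0, 9.44, 2.59 and 1.16 CPM. The groups did not overlap, and reads came from 9.09% to 16.7% of endoderm-like cells in the 4 embryos with any. The log2 difference was -3.42 (SE 0.60, edgeR adjusted p = 5.46e-07), in 4 of 4 embryos.

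H13 (chr2:152669461-152708670, plus strand), which encodes signal peptide peptidase and has a maternally expressed full-length transcript, moved the other way. Its epiblast-like sums had 37.3, 3.89, 25.3 and 18.9 CPM and its endoderm-like sums 182, 113, 170, 116 and 83.96 CPM. The lowest endoderm-like embryo was above the highest epiblast-like one. The log2 difference was 2.95 (SE 0.49, edgeR adjusted p = 9.65e-08), or 7.74-fold, in 4 of 4 embryos. Igf2r (chr17:12682406-12769664, minus strand), the receptor that carries IGF2 to lysosomes for breakdown, had 3.79, 1.46, 13.2 and 13.2 CPM in epiblast-like sums and 68.6, 46.9, 27.2, 70.9 and 141 CPM in endoderm-like sums. The groups were apart, although embryo 3 showed the smallest ratio of the paired embryos. The log2 difference was 2.95 (SE 0.70, edgeR adjusted p = 5.53e-04). Every endoderm-like cell of the 5 embryos had an Igf2r read, and 50% to 100% of epiblast-like cells did in embryos 1 to 4.

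Igf2 (chr7:142650766-142666816, minus strand), the growth factor that Igf2r binds, was low in both classes at E4.5. It had 0, 3.41, 0.562 and 0.534 CPM in epiblast-like sums and 1.36, 48.7, 10.1, 5.32 and 13.3 CPM in endoderm-like sums. Embryo 2 was highest in both classes, and the ranges overlapped, but within each of 4 embryos the endoderm-like sum was higher. The log2 difference was 3.80 (SE 1.03, edgeR adjusted p = 0.00343).

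Phlda2 (chr7:143501545-143503150, minus strand), a maternally expressed pleckstrin homology domain gene that restrains placental growth, had 48.7, 203, 26.4 and 39.7 CPM in epiblast-like sums. Its endoderm-like sums had 60.5, 0, 2.41, 0.0673 and 0.729 CPM. Embryo 1 went against the others, with more Phlda2 in its endoderm-like than in its epiblast-like cells, so the groups overlapped and 3 of 4 pairs were lower. The log2 difference was -5.01 (SE 0.70, edgeR adjusted p = 7.07e-11), and it ranged from -3.29 (without embryo 4) and -3.53 (without embryo 2) to -6.09 (without embryo 3) and -6.85 (without embryo 1), past the threshold each time. Sgce (chr6:4674350-4747207, minus strand), the paternally expressed epsilon-sarcoglycan, rested on 10 reads in the epiblast-like cells, at 2.16, 0, 0 and 1.07 CPM, and on none in the endoderm-like cells. Against a floor of 3 reads over the whole endoderm-like group this was at least 16.6-fold lower (edgeR adjusted p = 0.0142), with 2 of 4 pairs lower.

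**Figure D2:**
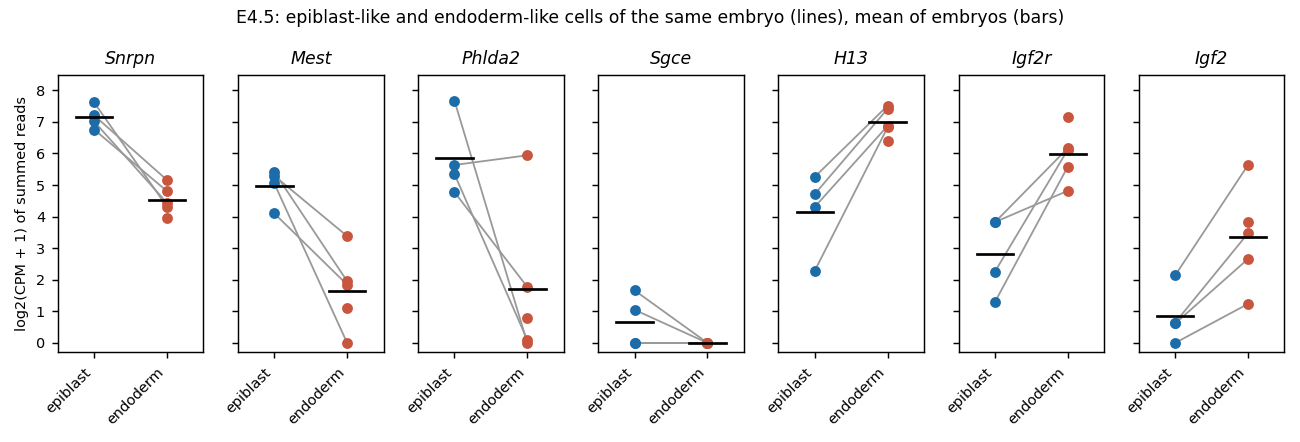
Level of the members called at E4.5 as log2(CPM + 1) of summed reads (y axis) in epiblast-like and endoderm-like cells (x axis), with lines joining the classes of an embryo and bars at the mean of embryos. The lines of Snrpn and Mest fall and those of H13 and Igf2r rise in all 4 paired embryos, and 1 line of Phlda2 does not fall.

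The E4.5 embryos carried 1 of 2 label prefixes, P1 for embryos 1 and 2 and P2 for embryos 3 to 5. Within them the log2 difference was -2.70 and -2.41 for Snrpn, -4.69 and -2.42 for Mest, and 3.42 and 2.6 for H13, all past the threshold. The calls of these 3 members were kept under every alternative fitted, including each embryo left out, although Mest moved to -2.82 without embryo 2. Without embryo 3 Igf2r moved to 3.68. Igf2r was at 4.54 in P1 and at 1.66 in P2 (adjusted p = 0.194), and Phlda2 at -2.95 in P1 (adjusted p = 0.16) and -5.96 in P2. The call of Phlda2 was also lost without the pairing by embryo (-2.76, adjusted p = 0.065). Igf2 lost its call without E6.5 embryo 1, whose sums share the estimate of spread (3.83, adjusted p = 0.0781), with Leiden classes (3.997, adjusted p = 0.0661), with at least 5 cells per sum (3.25, adjusted p = 0.0571) and with limma on the mean of cells (1.44, adjusted p = 0.0863). Sgce was lost with the stricter cell filter, Leiden classes, limma and within either prefix (adjusted p from 0.0504 to 0.483), and also without any of E4.5 embryos 1 and 4, the E5.5 embryo and either E6.5 embryo (adjusted p from 0.0653 to 0.195).

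**Figure D3:**
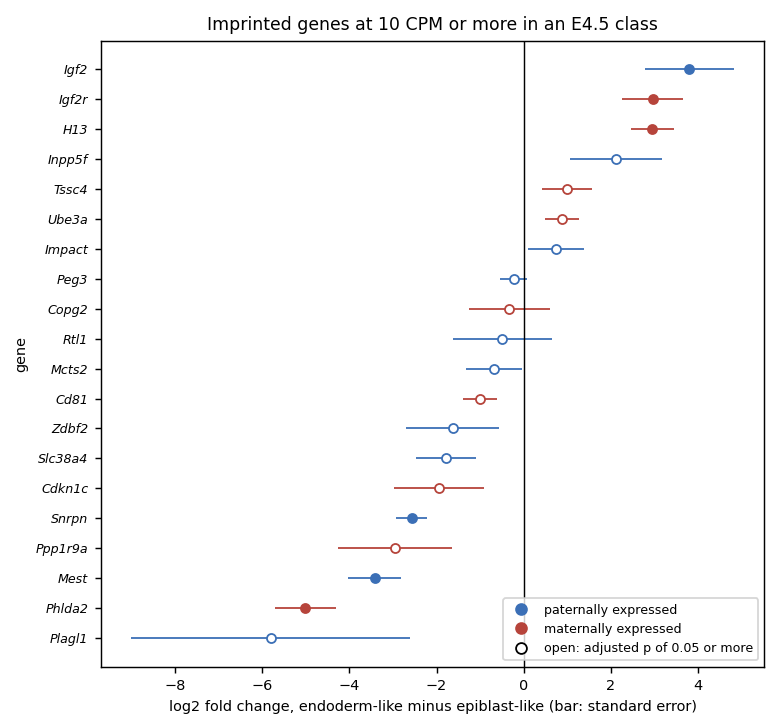
Log2 fold change of endoderm-like over epiblast-like cells at E4.5 (x axis) with its standard error (bars) for the members at 10 CPM or more in either E4.5 class (y axis), open symbols being members that did not pass the test. Snrpn, Mest and Phlda2 lie below 0 and H13, Igf2r and Igf2 above it.

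The other members at 10 CPM or more at E4.5 did not pass that test, with 2 near it. Slc38a4, a sodium-coupled amino acid transporter, had 54.7, 59.4, 33.4 and 133 CPM in epiblast-like and 26.8, 20.03, 13.4, 16.2 and 49.1 CPM in endoderm-like sums (log2 difference -1.79, SE 0.69, edgeR adjusted p = 0.0652). Cd81, a tetraspanin, had 58.99 to 162 CPM in epiblast-like and 33.1 to 93.3 CPM in endoderm-like sums (-1.001, SE 0.39, adjusted p = 0.0676). Both were lower on average in endoderm-like cells, with overlapping ranges.

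The same class was then compared between stages. From E4.5 to E5.5 in epiblast-like cells, 1 member was higher (background 0.822%) and 0 were lower (background 0.524%), and the median log2 difference was 0.84 over members against 0.00 over all genes. This contrast rests on 1 embryo at E5.5, assumed to vary as the others did. The member was Snrpn, at 601 CPM in the E5.5 embryo and at 107 to 195 CPM in the 4 E4.5 embryos (log2 difference 2.17, SE 0.47, edgeR adjusted p = 0.0136), with reads in every epiblast-like cell of both stages. Its call was lost with the stricter cell filter of 200000 reads and 4000 genes (1.80, adjusted p = 0.0588), with at least 5 cells per sum, with Leiden clusters as classes and with limma on the mean of cells. Without a filter on low counts 3 members were called.

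From E4.5 to E6.5 in epiblast-like cells, 4 members were higher (background 4.02%) and 0 were lower (background 2.02%). They were the growth regulators Igf2 and Grb10, together with Sgce and Ndn. The median log2 difference was 0.98 over members and 0.19 over all genes. Of the 39 members tested, 16 had an unadjusted p under 0.05, as did 3004 of all 15082 genes. The median was 0.98 for paternally and 0.96 for maternally expressed members.

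Grb10 (chr11:11930508-12038683, minus strand), an adaptor protein that dampens insulin and IGF receptor signalling, had 10.8, 0, 4.49 and 0 CPM at E4.5, 36.6 CPM at E5.5 and 98.2 and 134 CPM at E6.5. Each later embryo stood above every E4.5 embryo. Between E4.5 and E6.5 the log2 difference was 5.07 (SE 1.23, edgeR adjusted p = 0.0114). In the epiblast-like cells lowest in endoderm markers it was 5.01 (adjusted p = 0.0147).

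Igf2 had 0 to 3.41 CPM in the epiblast-like sums of E4.5, 2.38 CPM at E5.5 and 68.8 and 17.8 CPM at E6.5. The E6.5 embryos differed from each other and stood above all others (log2 difference 5.38, SE 1.17, edgeR adjusted p = 0.00456). Sgce had 0 to 2.16 CPM at E4.5, 0.807 CPM at E5.5 and 11.6 and 28.6 CPM at E6.5 (4.68, SE 1.28, adjusted p = 0.0294). Ndn (chr7:62346569-62350262, plus strand), which encodes necdin, a MAGE family protein, had no read in the 4 epiblast-like sums of E4.5, 19.7 CPM at E5.5 and 2.99 and 16.2 CPM at E6.5. In E4.5 embryo 5, 1 of the 2 epiblast-like cells, which were not summed, held 1 Ndn read, and 1 endoderm-like cell held 111 reads. Against a floor of 3 reads over the 4 E4.5 sums, Ndn was at least 46.1-fold higher in the E6.5 sums together (edgeR adjusted p = 0.0454), at least 13.02-fold in embryo 1 and at least 70.6-fold in embryo 2. All 3 lost their calls in the E6.5 cells lowest in endoderm markers, where the log2 difference was 3.62 for Igf2 (adjusted p = 0.0743) and 2.36 for Sgce (adjusted p = 0.336), while that of Ndn had an adjusted p of 0.0633. In the E6.5 endoderm-like sums Igf2 had 83.2 and 86.3 CPM and Sgce 47.4 and 8.11 CPM.

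Leaving out an E6.5 embryo left 0 (embryo 1) or 1 (embryo 2) of these members called, and leaving out the E5.5 embryo left 2. Values moved as well. With E4.5 embryo 1 left out Grb10 was at 6.27 and Sgce at 5.44, and with E4.5 embryo 2 left out Igf2 was at 6.67. Leaving out the E6.5 embryos in turn put Igf2 at 4.06 (embryo 1) and 6.02 (embryo 2), and the latter put Sgce at 3.90. The block by embryo number left 4 called, with Sgce (5.42, adjusted p = 0.183) and Ndn (adjusted p = 0.145) no longer among them. Ndn was also lost without E4.5 embryo 2, 3 or 4 (adjusted p from 0.0525 to 0.0633). In the fit of epiblast-like sums alone Igf2, Sgce and Ndn were lost, with all cells of an embryo pooled Igf2 and Ndn, with at least 5 cells per sum Sgce and Ndn, with the stricter cell filter Sgce, within prefix P2 Ndn, and with DESeq2 Grb10 (adjusted p from 0.0515 to 0.215). From E5.5 to E6.5 no epiblast-like member was higher (background 0.371%) or lower (background 0.285%) by edgeR and none by DESeq2. The median log2 difference was 1.01 over members and 0.05 over all genes. The contrasts of E5.5 and E6.5 with E4.5 share the E4.5 embryos.

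Between E4.5 and E6.5 in endoderm-like cells, 8 of the 39 members were higher (background 2.41%) and 0 were lower (background 1.47%). The median log2 difference was 0.99 over members and -0.0019 over all genes. The 5 paternally expressed members that rose were Sgce, Peg10, Mest, Snrpn and Magel2, and the 3 maternally expressed ones were Grb10, Cdkn1c and Phlda2.

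The neighbours Sgce and Peg10, which share a promoter region on chromosome 6 and are read in opposite directions, had no or few reads at E4.5. Sgce had 0 CPM in all 5 endoderm-like sums of E4.5 and 47.4 and 8.11 CPM at E6.5, together at least 897-fold higher than a floor of 3 reads over the E4.5 group (edgeR adjusted p = 9.22e-05). Taken singly against that floor, embryo 1 was at least 1031-fold and embryo 2 at least 176-fold higher. Peg10 (chr6:4747306-4760517, plus strand), a retrotransposon-derived gene needed for the placenta, had 0, 0, 7.46, 0 and 3.26 CPM at E4.5 and 238 and 129 CPM at E6.5 (log2 difference 6.39, SE 1.27, edgeR adjusted p = 0.00229). At E5.5 the endoderm-like sum had 102 CPM of Sgce and 10.7 CPM of Peg10, so both genes were at their lowest at E4.5.

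Mest rose from 0 to 9.44 CPM at E4.5 to 83.8 and 114 CPM at E6.5 (log2 difference 4.91, SE 0.68, edgeR adjusted p = 2.85e-05). Snrpn rose from 14.4 to 34.7 CPM to 84.3 and 174 CPM (2.43, SE 0.37, edgeR adjusted p = 1.22e-04). The growth-restraining members Grb10, Cdkn1c and Phlda2 rose as well. Grb10 went from 0 to 11.4 CPM to 169 and 146 CPM (5.09, SE 1.09, edgeR adjusted p = 0.00488). Cdkn1c (chr7:143458339-143461050, minus strand), the cyclin-dependent kinase inhibitor p57, went from 0 to 9.32 CPM to 96.8 and 60.3 CPM (4.33, SE 1.11, edgeR adjusted p = 0.0218). Phlda2 went from 0 to 60.5 CPM to 244 and 151 CPM (4.05, SE 1.11, edgeR adjusted p = 0.0348), the upper E4.5 value being that of embryo 1. Without that embryo its log2 difference was 8.03, and without any other embryo it was 3.50 to 4.32. Magel2, another MAGE family gene, had no read at E4.5 and 2.50 and 8.11 CPM at E6.5, together at least 73.6-fold above the floor (edgeR adjusted p = 0.0367), at least 54.4-fold in embryo 1 and at least 176-fold in embryo 2.

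Of these 8, Sgce and Mest were called with each embryo left out. Mest moved to 5.67 and Peg10 to 7.39 without E4.5 embryo 3, Peg10 to 5.78 without E6.5 embryo 1, and Grb10 to 5.79 without E4.5 embryo 4. Leaving out E6.5 embryo 1 left 3 called and E6.5 embryo 2 left 2, and Snrpn was lost without the latter (1.90, adjusted p = 0.0833). Magel2 was lost without E4.5 embryo 4 or 5 and Phlda2 without E4.5 embryo 5 or the E5.5 embryo (adjusted p from 0.0527 to 0.0835). Trophoblast markers moved with this contrast, with 5 and 7 of 9 at 10 CPM or more in the E6.5 endoderm-like sums and 1 or 2 in those of E4.5. The list summed to 166 and 164 CPM at E6.5 and to 57.3 to 195 CPM at E4.5. The markers of decidua or blood moved with it too, with 3 of 8 at 10 CPM or more in each E6.5 endoderm-like sum and 0 in those of E4.5, the list summing to 151 and 193 CPM at E6.5 and to 0 to 12.1 CPM at E4.5. Prl8a2 was at 66.1 and 40.1 CPM at E6.5 and at 0 at E4.5. The part of these cells in the rises was not tested. With Leiden classes Snrpn, Grb10, Cdkn1c and Magel2 were not called, with DESeq2 Grb10 was not, and Magel2 was not within prefix P1 or with the block by embryo number (adjusted p from 0.0876 to 0.859).

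**Figure D4:**
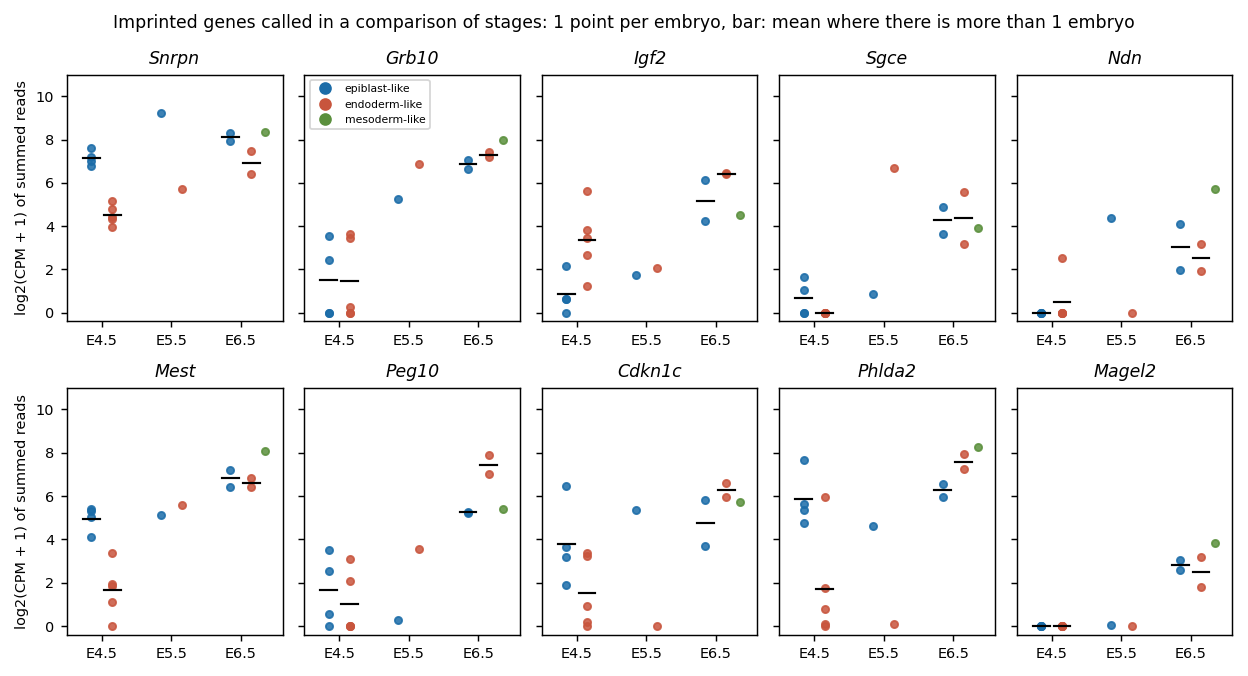
Level of the members called in a comparison of stages, as log2(CPM + 1) of summed reads (y axis), against stage (x axis), with 1 point per embryo and class and bars at the mean where a class had more than 1 embryo. In endoderm-like sums Sgce is at 0 CPM at E4.5 and at 47.4 and 8.11 CPM at E6.5, Peg10 at 0 to 7.46 and then at 238 and 129 CPM, and Mest at 0 to 9.44 and then at 83.8 and 114 CPM.

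At E5.5 the lineages of 1 embryo were compared, 8 endoderm-like with 51 epiblast-like cells. Each arm is 1 sum, and the spread was taken from the other stages, so the calls compare these 2 sums and have no replicate of their own. The endoderm-like cells had a median of 4223.5 genes at 1806100 reads, against 5599 genes at 1497628 reads in the epiblast-like cells. The part of this in the lower values and absent reads was not tested. In this embryo 2 members were higher in endoderm-like cells (background 2.7%) and 6 were lower (background 6.97%). The median log2 difference was -2.20 over members and -0.69 over all genes. Sgce had 102 CPM in the endoderm-like and 0.807 CPM in the epiblast-like sum (log2 difference 7.11, SE 2.48, edgeR adjusted p = 0.045), read in 6 of the 8 cells. Peg10 had 10.7 and 0.214 CPM (5.74, SE 1.64, edgeR adjusted p = 0.00892), with 97.6% of the endoderm-like reads from 1 cell.

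The 6 members lower in the E5.5 endoderm-like cells included 4 that had no read there. Of the 51 epiblast-like cells, 22 held reads of Cdkn1c and 19 held reads of Copg2. Folds against the floor of 3 reads take no account of there being only 8 endoderm-like cells. Cdkn1c had 40.5 CPM in the epiblast-like sum and was at least 211-fold lower (edgeR adjusted p = 2.07e-04). Nnat, a small membrane proteolipid, had 17.6 CPM and was at least 91.7-fold lower (adjusted p = 0.00931). Copg2, a coatomer subunit, had 12.2 CPM and was at least 63.4-fold lower (adjusted p = 0.00699), and Slc38a4 had 6.28 CPM and was at least 32.8-fold lower (adjusted p = 0.00193). Phlda2 had 23.3 CPM in the epiblast-like sum and 1 read in the endoderm-like sum, a ratio of 365 with an exact counting interval from 65.5 to 14434 (edgeR adjusted p = 2.52e-07). Snrpn had 601 and 51.7 CPM (log2 difference -3.39, SE 0.73, edgeR adjusted p = 1.51e-04), and 97.9% of its endoderm-like reads came from 1 of 8 cells. Leaving out either E6.5 embryo left 4 of the 8 called, since Copg2, Nnat, Peg10 and Sgce then no longer passed the threshold (adjusted p from 0.0531 to 0.242), and the fit without the pairing left 4. With limma 2 were left, and Sgce was also lost with the stricter cell filter, without a filter on low counts and in the fit with E6.5 cells low in endoderm markers (adjusted p from 0.054 to 0.294).

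At E6.5 no member was higher (background 0.292%) or lower (background 0.0663%) in endoderm-like than in epiblast-like cells of 2 embryos by edgeR or by DESeq2. By edgeR 520 of 15082 genes had an unadjusted p under 0.05, and 2 members were among them. These were Snrpn, at 242 and 316 CPM in epiblast-like and 84.3 and 174 CPM in endoderm-like sums (log2 difference -1.29, SE 0.48), and Peg10, at 36.7 and 37.6 CPM and at 238 and 129 CPM (2.14, SE 0.99). The median log2 difference was 0.02 over members and 0.00 over all genes. At that stage the endoderm-like sums held 9 and 8 of 10 epiblast markers at 10 CPM or more, at 660 and 1892 CPM in all, and the epiblast-like sums 11 and 9 of 15 endoderm markers. The part of this in the absence of calls was not tested.

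The difference between lineages was itself compared between E6.5 and E4.5. It was shifted upward at E6.5 for 2 members (background 0.749%) and downward for 0 (background 1.54%), with a median of 0.25 over members and -0.37 over all genes. Phlda2, far lower in endoderm-like cells at E4.5, had 94.5 and 60.9 CPM in epiblast-like and 244 and 151 CPM in endoderm-like sums at E6.5, and the change of its log2 difference was 6.25 (SE 0.97, edgeR adjusted p = 4.31e-08). Mest had 84.9 and 148 CPM and 83.8 and 114 CPM, a change of 3.12 (SE 0.95, edgeR adjusted p = 0.0429). Epiblast markers were at 660 and 1892 CPM in the E6.5 endoderm-like sums and at 2194 and 2230 CPM in the epiblast-like sums. At E4.5 they were at 786 to 1201 CPM and at 3456 to 5011 CPM. In ratio the classes stood nearer at E6.5 in embryo 2 only, and the part of this in both changes was not tested. Without E6.5 embryo 1 or 2 neither was called, Phlda2 being at 6.29 (adjusted p = 0.252) and 6.51 (adjusted p = 0.209), and without the pairing neither was. Leaving out an E4.5 embryo kept the Phlda2 call but moved its value, to 8.09 (embryo 1), 4.81 (embryo 2), 7.33 (embryo 3) or 4.57 (embryo 4). Mest was also lost without E4.5 embryo 1, 2 or 5 or the E5.5 embryo (2.57 to 3.11, adjusted p from 0.0523 to 0.0927), with the stricter cell filter, without a filter on low counts, in the cells lowest in endoderm markers, within prefix P2 and with limma (adjusted p from 0.053 to 0.438). Phlda2 was lost within prefix P1 (4.23, adjusted p = 0.173) and with limma (adjusted p = 0.111).

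Mesoderm-like cells were found in E6.5 embryo 2 alone, so this arm is 1 sum, and the spread was taken from the other groups. Against its epiblast-like cells 1 member was higher (background 0.053%) and 0 were lower (background 0.119%), with a median log2 difference of 0.24 over members and 0.07 over all genes. Peg3, a large paternally expressed zinc finger protein, had 465 CPM in the mesoderm-like sum and 106 CPM in the epiblast-like sum of that embryo, and 113 CPM in that of embryo 1 (log2 difference 2.15, SE 0.53, edgeR adjusted p = 0.0287). The call was lost without E4.5 embryo 5 (2.15, adjusted p = 0.074), without the E5.5 embryo (2.16, adjusted p = 0.122) and without E6.5 embryo 1, and in the epiblast-like cells lowest in endoderm markers (1.88, adjusted p = 0.173), with DESeq2 (2.19, adjusted p = 0.114), with limma, within prefix P1 and without the pairing. Other members were at their highest in the mesoderm-like sum without passing the test. Among them Phlda2 had 307 CPM, Mest 266 CPM, Grb10 254 CPM, Nnat 99.5 CPM, Asb4 64.96 CPM and Ndn 51.1 CPM.

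The number of members past a level differed between stages, and the share of all genes past the same level was not counted. A mean of 10 CPM or more was reached by 17 members in epiblast-like and 16 in endoderm-like cells at E4.5, by 20 and 14 at E5.5, and at E6.5 by 24 in the epiblast-like, 22 in the endoderm-like and 27 in the mesoderm-like class. Depth and genes per cell moved too, with a median of 6766, 5599 and 9126 genes in epiblast-like cells at the 3 stages. At full depth 16, 12 and 26 members had a read in at least 50% of the epiblast-like cells of these stages. After each cell was thinned to 50000 reads these numbers were 8, 6 and 17, so the order of stages was the same. In endoderm-like cells the numbers of members were 13, 10 and 27 at full depth and 7, 5 and 21 when thinned. The median genes of endoderm-like cells were 7104, 4223.5 and 9554. In both classes the order of stages was that of the median genes per cell. Detection over all genes was not counted, so a change of the members cannot be told from one of all genes.

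**Figure D5:**
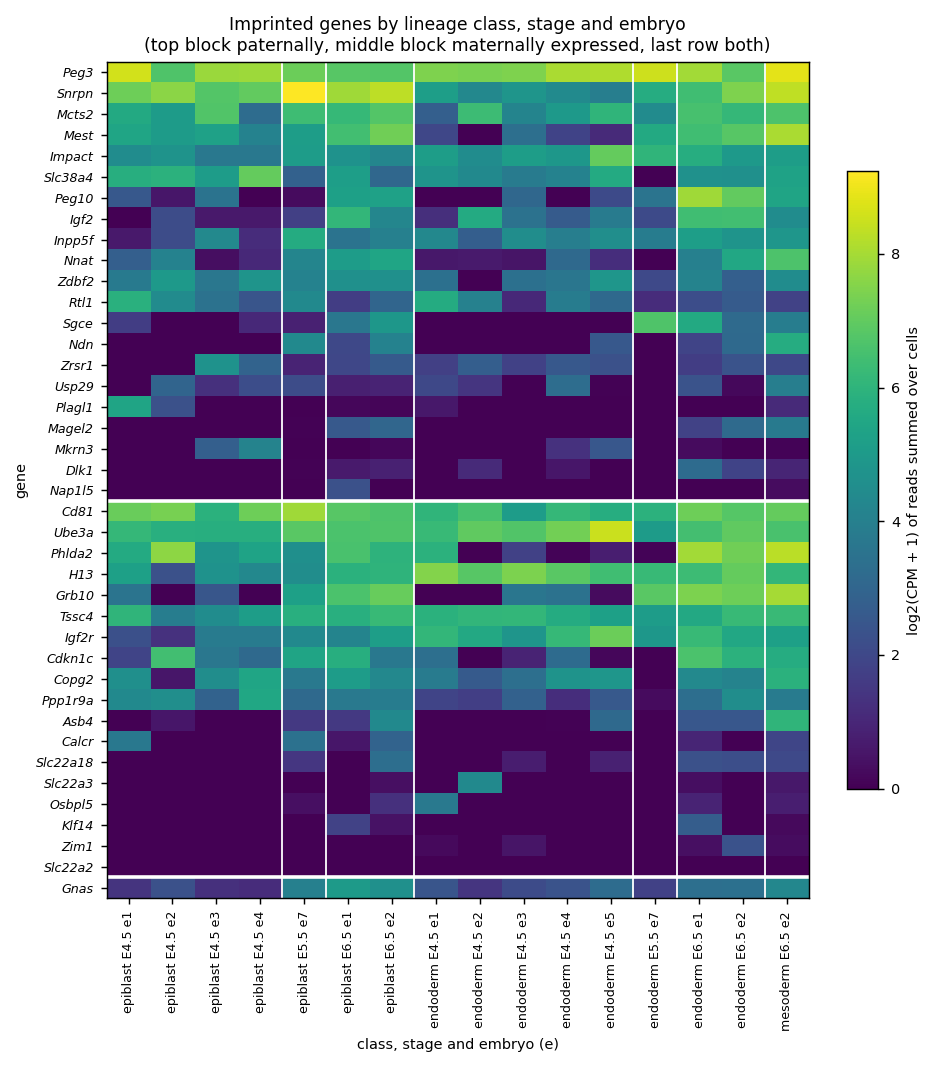
Level of each of the 40 members (y axis, paternally expressed above, maternally expressed below, Gnas last) in each class, stage and embryo (x axis) as log2(CPM + 1) of summed reads (colour). Members such as Snrpn, Peg3, Cd81 and Ube3a have reads in every column, and Slc22a2 in none.

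Several members had reads in every sum. Ube3a, the E3 ubiquitin ligase that is imprinted in neurons, had 53.9 to 69.3 CPM in the E4.5 epiblast-like sums, 116 CPM at E5.5 and 96.2 and 102 CPM at E6.5, and 32.8 to 361 CPM in endoderm-like sums. Peg3 had 103 to 386 CPM in the E4.5 epiblast-like sums, 143 CPM at E5.5 and 106 and 113 CPM at E6.5. Cd81 had 58.99 to 162, then 241, then 113 and 100.3 CPM. Impact, a regulator of translation under amino acid shortage, had 11.9 to 25.8, then 33.5, then 24.96 and 17.7 CPM. Tssc4, a factor in assembly of the spliceosome, had 14.1 to 65.5, then 55.5, then 55.9 and 72.9 CPM. None of these passed the test in any contrast of stages. The E6.5 epiblast-like values of Peg3, Cd81 and Impact lay within the E4.5 range and those of Ube3a above it.

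Other members varied widely between embryos of a group. The retrotransposon-derived Rtl1 had 56.8, 20.9, 10.1 and 4.45 CPM in the epiblast-like and 50.3, 15.5, 1.10, 13.6 and 8.01 CPM in the endoderm-like sums of E4.5, so that embryo 1 was highest in both. Plagl1, a zinc finger regulator of growth genes, had 41.1 and 3.89 CPM in the epiblast-like sums of E4.5 embryos 1 and 2 and 0 in those of embryos 3 and 4, and at most 1.13 CPM in any sum of a later stage. The retrogene Mcts2, which lies inside H13, had 8.72 to 104 CPM in the epiblast-like and 5.93 to 78.4 CPM in the endoderm-like sums of E4.5.

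Of the remaining members at 10 CPM or more, Zdbf2 had 11.8 to 30.7 CPM in the E4.5 epiblast-like sums, 16.2 CPM at E5.5 and 23.9 and 24.1 CPM at E6.5. Inpp5f, an inositol phosphatase, had 0.541 to 19.1, then 50.4, then 10.51 and 15.3 CPM, and Ppp1r9a, a subunit that directs protein phosphatase 1 to actin, had 6.46 to 44.1, then 7.96, then 12.4 and 13.6 CPM. Nnat had 0.281 to 16.1, then 17.6, then 33.8 and 41.6 CPM. Gnas, the stimulatory G protein alpha subunit locus, had 1.25 to 3.89, then 15.2, then 31.8 and 23.9 CPM, with every later embryo above all E4.5 embryos (E6.5 minus E4.5, log2 3.82, SE 1.21, edgeR adjusted p = 0.057). Copg2 had 0.487 to 42.3, then 12.2, then 33.3 and 18.8 CPM. Usp29, a deubiquitinase gene beside Peg3, and Asb4, a substrate adaptor of ubiquitin ligases, had at most 6.81 and 20.04 CPM in epiblast-like sums and reached 14.4 and 64.96 CPM in the mesoderm-like sum. These genes differed in whether the E6.5 epiblast-like values left the E4.5 range: those of Gnas and Nnat did, and those of Zdbf2, Inpp5f, Ppp1r9a and Copg2 did not.

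The 11 members Dlk1, Mkrn3, Nap1l5, Zrsr1, Slc22a18, Zim1, Osbpl5, Slc22a3, Slc22a2, Klf14 and Calcr stayed below a mean of 10 CPM in every class and stage. Single embryos still stood out among them. Zrsr1 had 25.002 CPM in the epiblast-like sum of E4.5 embryo 3, Slc22a3 20.03 CPM in the endoderm-like sum of E4.5 embryo 2, and Mkrn3 16.5 CPM in the epiblast-like sum of E4.5 embryo 4. Dlk1, the Notch-like ligand of the Dlk1-Dio3 cluster, reached 8.42 CPM in the E6.5 endoderm-like cells of embryo 1, where 66.7% of cells had a read, and no more than 1.14 CPM in any sum of an earlier stage.

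A list of 11 genes linked to the setting or keeping of imprints, Dnmt3l among them, was also read. At E4.5, 0 were higher (background 8.39%) and 7 lower (background 4.3%) in endoderm-like than in epiblast-like cells (edgeR, adjusted over all genes). Their median log2 difference was -1.56 against 0.25 over all genes. The smallest adjusted p-values were those of Trim28 (-1.67, SE 0.26, adjusted p = 1.26e-08), Atrx (-1.80, SE 0.29, adjusted p = 3.63e-08) and Dppa3 (-2.67, SE 0.45, adjusted p = 1.56e-07), and Zfp57 was among the 7. From E4.5 to E6.5 in epiblast-like cells, 0 were higher (background 4.02%) and 4 lower (background 2.02%), with a median of -0.71 against 0.19 over all genes. The 4 were Atrx, Dnmt3l, the cofactor of the de novo methyltransferases (-5.88, SE 0.61, adjusted p = 2.41e-07), Dppa3 (-5.25, SE 0.89, adjusted p = 3.40e-04) and Zfp57 (-4.19, SE 0.90, adjusted p = 0.00408). They passed in the cells lowest in endoderm markers too, and without either E6.5 embryo Atrx and Zfp57 did not. Without embryo 1 and without embryo 2 their differences were -1.66 and -1.60 (Atrx) and -4.42 and -3.99 (Zfp57). The other 7, which include Trim28 (-0.32), Dnmt1 (-0.19) and Ctcf (0.33), did not pass. Of the 11 in epiblast-like cells, 1 (Dnmt3l) fell from E4.5 to E5.5 (background 0.524%), where 3 had a positive difference, and 2 (Dnmt3l and Dppa3) fell from there to E6.5 (background 0.285%). In endoderm-like cells 1 rose (Trim28, background 2.41%) and 2 fell (Dnmt3l and Dppa3, background 1.47%) from E4.5 to E6.5. At E5.5, 0 were higher (background 2.7%) and 2, Dnmt3l and Atrx, lower (background 6.97%) in endoderm-like cells, and in mesoderm-like cells 1, Dnmt3l, was lower (background 0.119%). The change of the lineage difference from E4.5 to E6.5 was upward for 1, Dnmt3l (1.82, SE 0.54, adjusted p = 0.0382; background 0.749%).

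Of 13 genes around the IGF ligands and receptors, 2 were higher (background 8.39%) and 1 lower (background 4.3%) in endoderm-like cells at E4.5. Igfbp2, a secreted IGF binding protein, was lower (-5.63, SE 0.32, edgeR adjusted p = 4.05e-67), and the insulin receptor gene Insr (3.34, SE 0.92, adjusted p = 0.00418) and the ligand gene Igf1 (adjusted p = 0.0199) were higher, as were Igf2 and Igf2r. In endoderm-like cells from E4.5 to E6.5, 2 were higher (background 2.41%), Igfbp2 (3.86, SE 0.64, adjusted p = 3.13e-04) and Igfbp4, and 1, Igf1, was lower (background 1.47%). At E5.5, 0 were higher (background 2.7%) and 3, Igfbp2, Insr and Igf1r, lower (background 6.97%) in endoderm-like cells. In epiblast-like cells 1 rose from E4.5 to E6.5 (background 4.02%), the insulin receptor substrate gene Irs4, with no read in the 4 sums of E4.5 and 10.6 and 3.90 CPM at E6.5 (adjusted p = 0.0413), and it passed neither in the cells lowest in endoderm markers (adjusted p = 0.218) nor without E6.5 embryo 1 (adjusted p = 0.303) or 2 (adjusted p = 0.198). In the change of the lineage difference from E4.5 to E6.5, 1 of the 13, Igfbp2, rose (background 0.749%, 4.82, SE 0.47, adjusted p = 4.23e-21).

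Of 23 further imprinted coding genes, 21 were tested. Sfmbt2, a Polycomb protein that is imprinted in extraembryonic tissue, was higher in endoderm-like cells at E4.5 (5.28, SE 0.81, edgeR adjusted p = 5.72e-09) and at E5.5 (4.45, SE 1.47, adjusted p = 0.0309), and in epiblast-like cells at E6.5 over E4.5 (4.69, SE 0.81, adjusted p = 4.25e-04). Its epiblast-like sums had 0 to 2.92 CPM at E4.5, 0.807 CPM at E5.5 and 34.6 and 44.8 CPM at E6.5, and its endoderm-like sums 37.4 to 132 CPM at E4.5, 16.1 CPM at E5.5 and 65.2 and 72.2 CPM at E6.5. The endoderm and trophoblast markers given above rose in number in the same E6.5 epiblast-like sums, and in the cells lowest in endoderm markers the Sfmbt2 difference was 4.60 (adjusted p = 7.11e-04). Trophoblast markers were not part of that selection. Pon2 was also called there, with no read in the 4 E4.5 sums and 19.2 and 18.7 CPM at E6.5 (adjusted p = 0.0123), and in the cells lowest in endoderm markers (adjusted p = 0.0104), but not without either E6.5 embryo (adjusted p of 0.144 and 0.135). Sfmbt2 was the single call among the 21 between lineages at E4.5 (background 8.39% higher and 4.3% lower). At E5.5 it and Blcap, the host gene of Nnat, lower in endoderm-like cells as Nnat was, were the 2 calls (background 2.7% higher and 6.97% lower). The 2 calls in epiblast-like cells from E4.5 to E6.5 stood against a background of 4.02% higher. In endoderm-like cells between these stages 0 of the 21 were called by edgeR, where the background of 2.41% higher and 1.47% lower would be under 1 gene. Of the 21, 5 had an unadjusted p under 0.05, as did 2355 of all 15082 genes. The lineage difference of Sfmbt2 fell from E4.5 to E6.5 (-4.58, SE 1.22, adjusted p = 0.0116; background 1.54%). Of 4 relatives of members (Mcts1, Zrsr2, Herc3 and Copg1), Copg1, the paralogue of Copg2, was higher in endoderm-like cells at E4.5 (background 8.39%). Mcts1 and Zrsr2, close in sequence to Mcts2 and Zrsr1, were lower at E5.5 (background 6.97%). The 7 imprinted noncoding genes looked for were not analysed here.

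Neighbouring members were compared cell by cell, as Pearson correlations of log2(CPM + 1), and these are descriptions with no test. Values over all kept cells of a stage mix embryos, classes and depths, and values within a class still mix embryos and depths. Cdkn1c and Phlda2, which lie in the same maternally expressed cluster on chromosome 7, had r = 0.51 over the 75 cells of E4.5, where 12 cells held reads of both, and 0.37 to 0.70 in single embryos with both classes mixed. Within classes of E4.5 it was 0.34 (epiblast-like) and 0.35 (endoderm-like), the latter running from -0.056 to 0.65 in 4 single embryos. Over the 83 cells of E6.5 r was 0.55, but within classes it was 0.43 (epiblast-like, 0.17 and 0.74 in the 2 embryos), 0.035 (endoderm-like, -0.053 and 0.46) and 0.11 (mesoderm-like). Sgce and Peg10 had r = 0.17, 0.38 and 0.52 over all cells in order of stage, with 2, 2 and 60 cells holding both. Within classes their r was 0.15 in epiblast-like cells at E4.5, -0.050 in epiblast-like and 0.31 in the 8 endoderm-like cells at E5.5 and, at E6.5, 0.54 (epiblast-like), 0.28 (endoderm-like) and 0.17 (mesoderm-like). The endoderm-like value of E6.5 ran from -0.93 to 0.49 in the 2 embryos. Mest and Copg2, which overlap tail to tail, had -0.027, 0.36 and 0.43 over all cells, and 0.25, 0.053 and -0.28 within the same 3 classes of E6.5. H13 and Mcts2, which lie one inside the other, had -0.047, 0.013 and 0.21 over all cells, and -0.20, -0.29 and -0.36 within these classes, so the sign at E6.5 differed. The median r of all other pairs of members was 0.026, 0.041 and 0.147 over all cells of the 3 stages, and 0.082, 0.059 and 0.029 within the classes of E6.5.

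Some members share sequence with other genes, and how the counting dealt with it is not given in the sources used here. By GENCODE M21, 64.5% of the exonic bases of Igf2 lie under exons of Gm49394 or Igf2os, 34.1% of those of Snrpn under exons of Snurf and other genes, 30.7% of those of Cdkn1c and 27.3% of those of Ube3a under exons of the opposite strand. Mest and Copg2 overlap on opposite strands over 23.1% and 17.8% of their exonic bases. Without the strand, reads of such pairs cannot be told apart. Mcts2, Zrsr1 and Nap1l5 are retrogenes close in sequence to their parents, and their values are uncertain for that reason.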

How the data were processed

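Single cells of E4.5, E5.5 and E6.5 embryos had been picked by pipette, split into RNA and DNA, and amplified by Smart-seq2. The deposited values are raw read counts per gene and cell, made by the authors with Trim Galore, HISAT2 2.1.0 and featureCounts on GRCm38 per the submitters' processing notes and the study's methods; annotation release and strand of counting are not given in the sources used here. Gene symbols were matched for 21907 of 22084 identifiers. Cells with at least 50000 reads and 2000 genes were clustered per stage by Ward's method on log2(CPM + 1) of lineage markers, and clusters were named from those markers (at least 3 raised by a log2 of 1). Doublets were not called. The labels name 5 embryos at E4.5 and the study's methods fewer, and the labels were followed.

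Reads were summed per embryo and class (at least 3 cells) and tested with edgeR 4.0.16 (R 4.3.3, TMM, filterByExpr, quasi-likelihood, Benjamini-Hochberg over 15082 genes, threshold 0.05): 1 fit by stage and class, 1 fit with embryo as a term for lineages within a stage, all sums sharing 1 estimate of spread. Depth per sum was 1747123 to 79265663 reads, and a floor of 3 reads or an exact interval covers counting error only, as reads are not molecules. Nothing says whether embryos of a stage were littermates. Coordinates and exons are from GENCODE M21, promoter windows from RefSeq (GRCm38.p6). Members and lists were chosen with earlier results of these data known. Every called member was named, levels were given for members at 10 CPM or more, and up to 3 genes per other list were named by smallest adjusted p, except that Zfp57, Dnmt1, Ctcf, Igfbp4, Igf1r, Irs4, Pon2, Blcap, Copg1, Mcts1 and Zrsr2 were named after their values were seen. The 267 bisulfite libraries were not used. Alternatives were a stricter cell filter, Leiden classes (scanpy 1.11.5), 5 cells per sum, DESeq2 1.42.0, its size factors, no low-count filter, limma 3.58.1 on the mean log2(CPM + 1), each embryo left out, each E4.5 prefix alone, epiblast-like sums alone, lineages pooled, the embryo block, thinned cells and, chosen after seeing the data, E6.5 epiblast-like cells low in endoderm markers.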

Additional observations from a re-analysis of the deposited data

Results flagged for a closer look

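The difference between endoderm-like and epiblast-like cells changed from E4.5 to E6.5 for 2 members, by edgeR's test of that change itself. It rose by 6.25 on the log2 scale for Phlda2 (adjusted p = 4.31e-08) and by 3.12 for Mest (adjusted p = 0.0429). Without either E6.5 embryo neither passed the test, and with single embryos left out the Phlda2 value ranged from 4.57 to 8.09. The 12 cells of E6.5 whose cluster took no name entered no comparison, and 18 members lay at a mean of 10 CPM or more in them over the 2 embryos. H13 was at 817 CPM in the 6 such cells of embryo 1 and at 108 CPM in the 6 of embryo 2. These cells had a median of 5407 genes at 3311275 reads, against 9126 to 9984.5 genes in the named E6.5 classes, their top genes by fold began with the predicted genes Gm10801 and Gm10800, and their 15 endoderm markers summed to 10947 and 6570 CPM. The part of RNA quality or of other lineages in these levels was not tested. Dixon's test for a stray highest or lowest embryo, on the mean over cells of log2(CPM + 1), marked none of the 33 groups of 4 or 5 E4.5 embryos in which a member averaged 10 CPM or more, where chance alone would mark about 1 in 20. With so few embryos it detects only extreme gaps. Embryo 1, with the highest Phlda2 in endoderm-like cells, lay apart from the next by 0.685 of the range on that scale and by 0.96 on the CPM of sums, the limit being 0.71.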

How the results depend on the processing

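Snrpn, Mest and H13 at E4.5 kept direction and call under every alternative fitted. Over 31 results on named members, 455 of 571 values under alternatives kept both and 116 kept direction only; none reversed. The size factors of DESeq2 in edgeR gave the same numbers of members called throughout, while the numbers called over all genes moved a little.

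Numbers of members called, main first, were as follows. Epiblast-like E5.5 minus E4.5, 1: the stricter cell filter and Leiden classes gave 0, 5 cells per sum, DESeq2, E4.5 prefix P2 and pooled lineages 2, no low-count filter 3 and prefix P1 4. Epiblast-like E6.5 minus E4.5, 4: cells low in endoderm markers 2, no filter, prefix P1 and pooled lineages 7, limma 12, epiblast-like sums alone 1. Epiblast-like E6.5 minus E5.5, 0: no filter, limma and prefix P1 1. Endoderm-like E6.5 minus E4.5, 8: Leiden 4, limma 15. At E4.5 between lineages, 7: 5 cells per sum and DESeq2 11. At E5.5 between lineages, 8: 5 cells per sum 17, limma 2. At E6.5 between lineages, 0, and mesoderm-like, 1: 5 cells per sum 2 each. Mesoderm-like: low in endoderm markers, DESeq2, limma and prefix P1 0. Change of the lineage difference, 2: stricter filter, no low-count filter and prefix P2 1, 5 cells per sum 6, limma 0. The share of all genes called moved as well, at E5.5 between lineages from 9.67% to 27.7% with 5 cells per sum and 4.67% with limma, at E4.5 from 12.7% to 13.99% and, with DESeq2, 26.97%, and for E6.5 minus E4.5 from 6.04% to 19.3% in epiblast-like and from 3.88% to 16.7% in endoderm-like cells with limma. For epiblast-like E6.5 minus E4.5 that share was 7.14% without a filter, 8.52% in prefix P1, 6.56% pooled and 2.66% with epiblast-like sums alone. For epiblast-like E5.5 minus E4.5 it rose in each setting listed with more members and fell in those listed with 0. With 5 cells per sum it rose in every comparison listed with that setting, and E4.5 embryo 4 alone kept an E4.5 epiblast-like sum. Limma on means of cells moved the median of all genes. The causes were not tested.

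Leaving out single embryos gave 1 to 2 members in epiblast-like cells for E5.5 minus E4.5, 0 to 5 for E6.5 minus E4.5 and 0 to 0 for E6.5 minus E5.5, 2 to 9 in endoderm-like cells, 5 to 9, 4 to 9 and 0 to 0 between lineages in order of stage, 0 to 1 in mesoderm-like cells and 0 to 3 for the change; a lone sum is then assumed to vary like the rest. Fits without the E5.5 embryo, or of mesoderm-like cells without E6.5 embryo 2, have no value for those contrasts. Leiden gave no epiblast-like class at E6.5 and no endoderm-like class at E5.5, so those contrasts have none either.

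Embryo numbers did not pair stages (correlation of deviations of same-numbered E4.5 and E6.5 embryos -0.033 and -0.0040 over 6588 genes). The block by number gave 4 in epiblast-like and 7 in endoderm-like cells for E6.5 minus E4.5. Without the pairing of lineages by embryo, 10 were called at E4.5, 4 at E5.5, 0 at E6.5, 0 in mesoderm-like cells and 0 for the change.

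Members with a read in 50% of cells fell after thinning from 16 to 8 and 13 to 7 (epiblast-like and endoderm-like, E4.5), 12 to 6 and 10 to 5 (E5.5) and 26 to 17 (epiblast-like, E6.5). No fit was made on thinned cells, so the part of depth in calls on members with few reads, such as Sgce at E4.5, was not tested.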
